A study of Mus musculus with 4 samples.

Results

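The 6 genes described here, Ptf1a, Rbpjl, Bhlha15, Nr5a2, Gata4 and Gata6, encode transcription factors of the pancreatic acinar cell, and all 6 were found among the 32288 features of the deposited count table of EYFP+ cells. They were chosen by name. Acinar cells make and secrete the digestive enzymes. PTF1A binds DNA in the PTF1 complex together with an E protein and either RBPJ or its acinar relative RBPJL, and this complex drives the enzyme genes. BHLHA15, also called MIST1, controls the secretory machinery, NR5A2 is a nuclear receptor that works with PTF1 on acinar genes, and GATA4 and GATA6 are zinc finger factors of the endoderm that the pancreas needs in development. In pancreatitis acinar cells can lose these programmes and take on ductal features, a process called acinar-to-ductal metaplasia.

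The cells came from the pancreata of 4 mice of genotype Ptf1aCre-ERTM;ROSAYFP/+, of a strain crossed back into CD-1. In these mice tamoxifen switches on EYFP in cells that express Cre from the Ptf1a gene, so the gene that marked the cells is itself one of the 6, and whether UMIs assigned to Ptf1a include transcripts of the Cre allele was not tested. Caerulein, a peptide that overstimulates acinar cells and causes pancreatitis, was begun when the mice were 10 weeks old, and was given for 2 weeks to 2 mice and for 4 weeks to 2 mice. EYFP+ cells were sorted and profiled with 10x Genomics 3' chemistry. All 4 mice carried both alleles and had tamoxifen and caerulein, and no uninjured mouse was analysed here. The labels do not say more of how the mice are related, so p-values measure the spread between these 4 animals.

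The authors' labels placed 13362 cells in 8 types. The types used most here were Acinar (3698 cells), Acinar/MucinDuctal (1955 cells, a type named for both states), MucinDuctal (3983 cells), Tuft (1280 cells, chemosensory cells) and EEC (1208 cells, enteroendocrine cells). The others were Acinar.Prolif (894 cells), Ductal-like (139 cells) and Tuft/EEC.Progenitor (205 cells). Summed markers matched the names of Acinar, MucinDuctal, Tuft, EEC and Acinar.Prolif cells, but not all names. In Tuft/EEC.Progenitor cells the enteroendocrine genes Chga, Chgb and Neurod1 summed to 2.80 to 13.4 CPM, against 4941 to 7844 CPM in EEC. The tuft genes Dclk1, Pou2f3 and Trpm5 summed to 123 to 193 CPM in Tuft/EEC.Progenitor cells, above every type but Tuft. In Ductal-like cells the mucin and ductal genes summed to 1884 to 10086 CPM and the acinar enzymes to 12600 to 69695 CPM, so these 2 types are called by their deposited names only. The acinar enzymes Cpa1, Prss2, Cela1 and Ctrb1 reached 243182 to 307180 CPM in Acinar cells and 10446 to 15215 CPM in MucinDuctal cells, and the tuft genes Dclk1, Pou2f3 and Trpm5 reached 2124 to 2737 CPM in Tuft cells. CPM is the usual depth-scaled unit: the gene's UMIs over all cells of a type in a mouse, divided by all UMIs of those cells and scaled. Typed cells had median depths of 20807 and 20586 UMIs in the 2-week mice and of 15067 and 13464 UMIs in the 4-week mice. Of 13338 distinct typed barcodes, 23 occurred in more than 1 library. Deposited types of this kind are usually drawn from the counts themselves, so differences between types are given as values with no test.

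Upstream sequence of 3 of the genes that lay lower in MucinDuctal cells is shown because PTF1 is known to bind an E-box next to a box of the RBPJ type. No match to the RBPJ-type box searched for was found in them, so only E-box and GATA-type matches are marked. RefSeq windows (GRCm38.p6) matched 4 of the 6 genes, Ptf1a, Rbpjl, Bhlha15 and Nr5a2, with 2 start sites for Nr5a2. Each line holds the 250 bases before the start site, 5′ to 3′ on the gene's strand, and capitals mark matches on either strand to CACCTG (an E-box) or AGATAA (a box of the GATA type).
Rbpjl chr2:164402944-164403193 plus strand: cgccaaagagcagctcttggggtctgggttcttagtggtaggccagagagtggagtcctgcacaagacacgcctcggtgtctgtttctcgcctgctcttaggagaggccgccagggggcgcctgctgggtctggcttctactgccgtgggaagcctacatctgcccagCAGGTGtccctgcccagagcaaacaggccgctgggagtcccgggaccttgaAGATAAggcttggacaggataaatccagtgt
Bhlha15 chr5:144190036-144190285 plus strand: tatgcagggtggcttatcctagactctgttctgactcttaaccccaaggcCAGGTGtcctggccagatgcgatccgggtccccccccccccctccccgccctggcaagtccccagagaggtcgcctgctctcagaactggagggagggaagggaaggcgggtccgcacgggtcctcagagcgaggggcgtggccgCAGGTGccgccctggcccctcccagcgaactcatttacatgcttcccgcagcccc
Nr5a2 chr1:136953631-136953880 minus strand: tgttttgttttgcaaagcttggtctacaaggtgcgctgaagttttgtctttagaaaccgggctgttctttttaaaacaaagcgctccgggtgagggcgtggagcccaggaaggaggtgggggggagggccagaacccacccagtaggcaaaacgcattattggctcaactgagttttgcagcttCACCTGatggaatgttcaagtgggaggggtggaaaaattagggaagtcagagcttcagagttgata
Rbpjl held 1 CACCTG and 1 AGATAA, Bhlha15 held 2 CACCTG, and the Nr5a2 window shown held 1 CACCTG. Of all 32851 windows of this length, 17.2% held the motif CACCTG and 9.99% held AGATAA. The other Nr5a2 window held 2 AGATAA and no CACCTG. Other motifs searched on both strands were the RBPJ-type box TTTCCC (in 21.9% of windows), the NR5A-type box CAAGGTCA (in 1.33%) and the general E-box CANNTG (in 66.2%). The Ptf1a window held none of the 5 motifs. None of the 5 windows of these genes held TTTCCC or CAAGGTCA. CANNTG, which includes CACCTG, occurred 2 times in Rbpjl, 3 times in Bhlha15 and 2 and 3 times in the 2 Nr5a2 windows. Start sites differ between annotations. By GENCODE M21 Rbpjl starts at chr2:164403141, inside its window. The AGATAA match, at -31 from the RefSeq start site, thus lies after the GENCODE start. The Nr5a2 window shown also lies inside the GENCODE span of its gene.

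From Acinar to MucinDuctal cells the 6 genes went in both directions. Ptf1a, Rbpjl, Bhlha15 and Nr5a2 were lower in MucinDuctal cells in all 4 mice with no overlap between the types, and Gata4 and Gata6 were higher on the CPM scale. Of 15579 genes, 2.62% were lower in MucinDuctal cells with no overlap and 73.2% were higher, so higher CPM was the common case. Enzyme genes took 58.1% to 67.8% of the UMIs of Acinar cells and 2.53% to 4.15% of those of MucinDuctal cells. The median gene accordingly stood 1.12 higher in MucinDuctal than in Acinar cells on the log2 scale, 0.96 higher in Acinar/MucinDuctal, 1.29 in Tuft and 1.54 in EEC. Levels are therefore also given with the enzyme genes left out of the total. By GENCODE M21 on mm10, Ptf1a lies at chr2:19445663-19447501 (plus strand), Rbpjl at chr2:164403141-164415448 (plus), Bhlha15 at chr5:144190286-144194441 (plus), Nr5a2 at chr1:136842571-136960448 (minus), Gata4 at chr14:63198922-63271692 (minus) and Gata6 at chr18:11052064-11085635 (plus), all protein-coding.

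**Figure D1:**
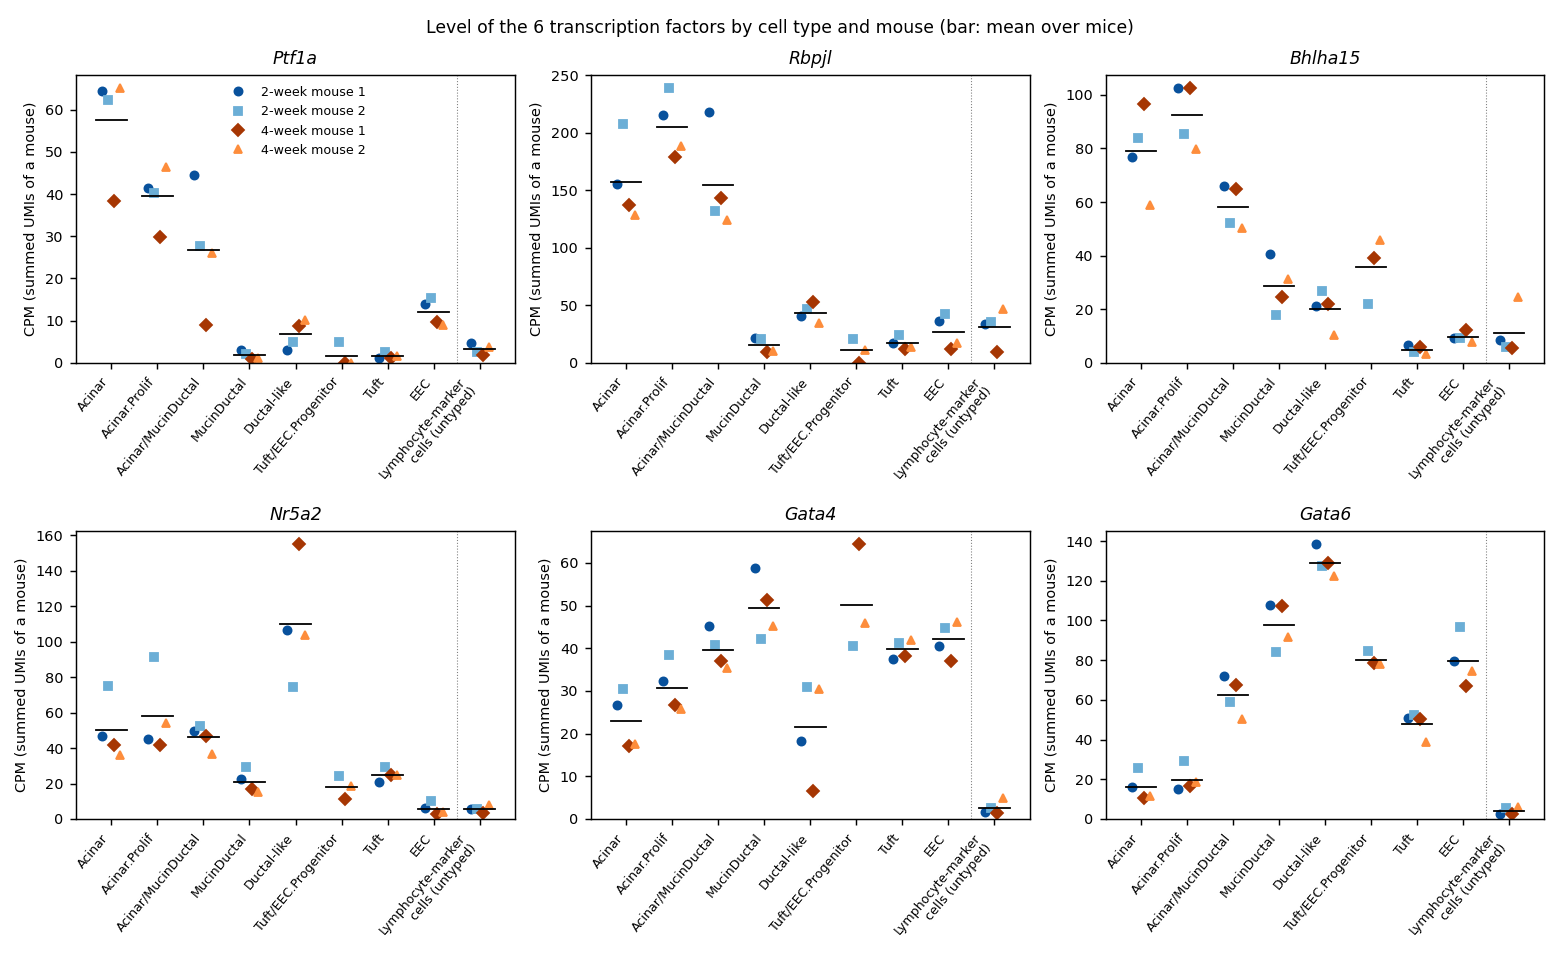
Each panel plots 1 gene, with its CPM on the vertical axis and the 8 deposited types plus untyped cells with lymphocyte markers on the horizontal axis; points are mice with at least 20 cells and bars are means. Rbpjl is high in the types with Acinar in their name and low in the others. By mean, Ptf1a is highest in Acinar and Acinar.Prolif cells. Its range in Acinar/MucinDuctal cells (8.84 to 44.5 CPM) overlaps with that in EEC (8.96 to 15.4 CPM). Gata6 is low in Acinar cells and high in Ductal-like and MucinDuctal cells. The higher CPM of Gata4 in MucinDuctal cells does not hold once enzymes are left out. Its range then overlaps with that of Acinar cells.

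Ptf1a, whose protein gives the PTF1 complex its name, had the lowest percentage of its Acinar CPM of the 6 in Acinar/MucinDuctal cells. In Acinar cells it measured 64.5 and 62.2 CPM in the 2-week mice and 38.5 and 65.1 CPM in the 4-week mice. In Acinar/MucinDuctal cells it measured 44.5, 27.6, 8.84 and 26.1 CPM in the same order. It was lower than in the Acinar cells of the same mouse in all 4 mice, although the ranges overlapped because of 1 Acinar and 1 Acinar/MucinDuctal value, and did not overlap without 2-week mouse 1 or without 4-week mouse 1. In MucinDuctal cells it measured 2.90, 2.08, 0.835 and 1.07 CPM, and in Tuft cells 1.17, 2.47, 1.2 and 1.53 CPM. Both sets lay below every Acinar and Acinar/MucinDuctal value. Against Acinar cells, mouse by mouse, the log2 ratio of Ptf1a was -1.24 ± 0.61 (SD, n = 4 mice) in Acinar/MucinDuctal, -4.46 ± 0.39 in MucinDuctal and -4.49 ± 0.38 in Tuft cells, computed on CPM + 1. In every mouse Ptf1a had the lowest percentage of its Acinar level among the 6 genes in Acinar/MucinDuctal, MucinDuctal and Tuft cells. For Acinar/MucinDuctal cells this depended on the Acinar reference, as given below with the order of loss. In MucinDuctal and Tuft cells the CPM of Ptf1a lay below a background level, given next, in all 4 mice. Its rank in these 2 types is therefore not resolved from background.

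A background for these values was read from other cells. Cells of the merged table without a deposited type that had UMIs of at least 3 of 12 lymphocyte genes, which should not make acinar factors, numbered 282, 363, 443 and 333 in the 4 mice. Whether their acinar transcripts came from free RNA or from doublets was not tested. They held Ptf1a at 4.62, 2.51, 1.83 and 3.70 CPM. MucinDuctal and Tuft cells were below this level in CPM in all 4 mice. Untyped cells with macrophage markers held 3.67, 1.34, 1.08 and 5.40 CPM, which MucinDuctal cells exceeded in 1 mouse and Tuft cells in 2. Counted as UMIs per cell, which grows with depth, MucinDuctal and Tuft cells were above the lymphocyte-marker cells in all 4 mice. The values were 0.0156 to 0.0674 in MucinDuctal and 0.0189 to 0.0496 in Tuft cells, against 0.00903 to 0.0213 in lymphocyte-marker cells. At least 1 Ptf1a UMI was found in 51.7% to 59.6% of Acinar cells and in 0.832% to 4.25% of MucinDuctal cells, against 0.903% to 2.13% of lymphocyte-marker cells. These shares depend on depth: lymphocyte-marker cells had median depths of 3109 to 3928 UMIs, MucinDuctal cells 15110 to 21810 and Acinar cells 24008 to 32664. With each cell thinned to 1500 UMIs, which left out 1 to 17 Acinar, 0 to 2 MucinDuctal and 8 to 25 lymphocyte-marker cells per mouse as too shallow, the Ptf1a share was 5.43% to 8.76% in Acinar cells, 0.0979% to 0.347% in MucinDuctal cells and 0.234% to 0.687% in lymphocyte-marker cells.

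Ptf1a stood above this background in EEC. Ptf1a measured 13.8 and 15.4 CPM at 2 weeks and 9.73 and 8.96 CPM at 4 weeks in EEC, above the lymphocyte-marker cells and above the MucinDuctal cells of the same mouse in all 4 mice. Ductal-like cells, with 3.04, 5.00, 8.73 and 10.2 CPM from 4 to 12 UMIs per mouse, were also above MucinDuctal cells in all 4 mice and above the lymphocyte-marker cells in 3. Few EEC carried Ptf1a. At least 1 UMI was found in 18 of the 264, 23 of the 359, 12 of the 295 and 10 of the 290 EEC, and those cells held a mean of 3.08 to 3.39 UMIs each. Of the positive cells 10, 13, 9 and 5 had 2 or more UMIs, and of the MucinDuctal cells, which were at least as deep, 2, 11, 3 and 1 cells did out of 371, 1388, 961 and 1263. By the deposited subtypes, Delta (Sst+) cells, which make somatostatin, held 20.5, 46.4, 31.7 and 14.4 CPM. These values came from 11, 27, 10 and 5 UMIs in 29 to 45 cells per mouse. Epsilon (Ghrl+) cells, which make ghrelin, held 22.3, 27.0, 14.1 and 15.1 CPM. EEC-Progenitor (Neurog3+) cells, a label that also covers cells outside the EEC type, had 0, 3.72, 1.98 and 6.82 CPM from 0 to 9 UMIs. ECL (Tac1+) cells had 6.25, 3.13, 0 and 1.78 CPM from 0 to 3 UMIs. Both lay below the Delta and Epsilon values in every mouse. The share of all genes that lay so between the subtypes was not computed. Ppy+ cells, 20 to 45 per mouse, ranged from 0 to 22.6 CPM, with 2-week mouse 2 the highest. For each 100 Rbpjl UMIs, EEC held 36.6 to 84.1 Ptf1a UMIs, Acinar cells 28.0 to 50.8, MucinDuctal cells 8.82 to 13.2 and lymphocyte-marker cells 7.14 to 20.0. In the EEC with Ptf1a the median level of the listed enzymes was 12858 to 42274 CPM, and in the EEC without it 5964 to 16749 CPM, higher with Ptf1a in all 4 mice; the part of acinar RNA in these cells was not tested. The islet beta cell genes Ins1 and Ins2 summed to 2.89 to 8511 CPM in EEC, and their part was not tested either.

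Rbpjl, which replaces RBPJ in the PTF1 complex of mature acinar cells, was less reduced than Ptf1a in Acinar/MucinDuctal cells, set against all Acinar cells. Acinar cells held 156, 207, 138 and 128 CPM and Acinar/MucinDuctal cells 218, 132, 143 and 124 CPM. The 2 ranges overlapped, with 2 mice higher and 2 lower, and the log2 ratio was -0.04 ± 0.47. Per 100 Rbpjl UMIs, Acinar/MucinDuctal cells held 20.4, 20.9, 6.16 and 21.0 Ptf1a UMIs. All Acinar cells held 28.0 to 50.8, Acinar cluster 0 held 19.2 to 21.7 and Acinar cluster 6 held 84.7 to 116. Set against cluster 0, Ptf1a and Rbpjl thus stood in a similar ratio in all mice but 4-week mouse 1. Acinar/MucinDuctal cells hold 2 main deposited clusters. For Rbpjl, cluster 3 measured 289, 159, 226 and 139 CPM. Cluster 4, with 117 to 485 cells per mouse, measured 102, 102, 67.8 and 96.7 CPM, below every cluster 3 and Acinar value. The share of all genes that lay so between the clusters was not computed. Enzymes took 41.3% to 44.7% of the UMIs of cluster 3 and 12.7% to 18.3% of those of cluster 4. Without the enzymes Rbpjl in Acinar/MucinDuctal cells was 37.7% to 78.8% of its Acinar level, lower in all 4 mice with no overlap, as were 7.34% of genes on that scale. MucinDuctal cells held 21.9, 20.3, 9.47 and 10.3 CPM, 6.88% to 14.1% of Acinar, for a log2 ratio of -3.33 ± 0.41. Tuft cells held 17.6, 24.1, 12.0 and 13.4 CPM. Lymphocyte-marker cells held 33.8, 35.2, 9.16 and 46.3 CPM, so MucinDuctal and Tuft cells exceeded this background in 1 mouse each, 4-week mouse 1, and in 3 mice each when counted as UMIs per cell. EEC (36.0, 42.0, 11.6 and 17.4 CPM) exceeded it in 3 mice, and Ductal-like cells (40.3, 47.1, 52.4 and 34.6 CPM) in 3 mice. Untyped cells with macrophage markers held more Rbpjl, 46.9, 37.8, 23.8 and 58.9 CPM, which EEC exceeded in 1 mouse and Ductal-like cells in 2. 4-week mouse 2, whose lymphocyte-marker cells held the most Rbpjl, also had the highest share of enzyme UMIs in those cells, 22.5% against 2.70% to 5.32% in the other mice.

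Bhlha15, the secretory factor, decreased less than Ptf1a and Rbpjl from Acinar to MucinDuctal cells. From Acinar to Acinar/MucinDuctal cells it decreased more than Rbpjl. It measured 76.8, 84.1, 96.5 and 58.9 CPM in Acinar cells, 65.9, 52.1, 64.7 and 50.3 CPM in Acinar/MucinDuctal cells and 40.6, 17.9, 24.6 and 31.3 CPM in MucinDuctal cells. In CPM each step was downward in all 4 mice, and MucinDuctal cells did not overlap with either other type. In UMIs per cell MucinDuctal cells (0.459 to 0.943) overlapped with Acinar/MucinDuctal cells (0.326 to 1.55), at 30.8% to 177% of their level. The log2 ratios to Acinar were -0.42 ± 0.24 and -1.48 ± 0.67. Without enzymes in the total, Bhlha15 was 29.4% to 48.2% of its Acinar level in Acinar/MucinDuctal and 8.51% to 21.9% in MucinDuctal cells. Unlike Ptf1a and Rbpjl, Bhlha15 in MucinDuctal cells stood above the lymphocyte-marker cells (8.46, 6.04, 5.49 and 24.7 CPM) in all 4 mice, although plasma cells, which can be among lymphocytes, are known to express the gene. Tuft cells held 6.44, 3.96, 5.71 and 3.07 CPM and were below this background in 3 mice, but above it in 3 mice when counted as UMIs per cell. EEC held 9.13, 9.28, 12.1 and 7.56 CPM, the lowest ratio of the 6 genes in both 2-week mice.

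Nr5a2 was retained at an intermediate level in MucinDuctal and Tuft cells. Acinar cells held 47.1, 74.9, 41.8 and 36.0 CPM and Acinar/MucinDuctal cells 49.7, 52.2, 46.6 and 36.9 CPM, 2 overlapping ranges with a log2 ratio of -0.06 ± 0.30. MucinDuctal cells held 22.7, 29.4, 16.8 and 15.3 CPM, with a log2 ratio to Acinar of -1.20 ± 0.13, and Tuft cells held 21.1, 29.2, 25 and 24.9 CPM. Both types were below Acinar cells without overlap and above the lymphocyte-marker cells (3.2 to 8.02 CPM) in all 4 mice. Without enzymes in the total, Nr5a2 was 41.3% to 59.3% of its Acinar level in Acinar/MucinDuctal, 13.4% to 20.0% in MucinDuctal and 16.5% to 23.5% in Tuft cells. EEC held 6.41, 10.3, 2.63 and 3.92 CPM, above the lymphocyte-marker cells in the 2-week mice and below them in the 4-week mice. Ductal-like cells held 106, 74.2, 155 and 104 CPM, with 22 to 56 cells per mouse, the highest of the 8 types in all mice but 2-week mouse 2. The ratio to Acinar was 2.26, 0.991, 3.71 and 2.88 in the 4 mice, and without enzymes the mean log2 ratio turned from 1.13 to -0.22. Lymphocyte markers summed to 184 to 310 CPM in Ductal-like cells, the highest of the 8 types, and their part in the values of these cells was not tested.

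Gata4 and Gata6 were present in every type at levels above the lymphocyte-marker cells, and they differed from each other. Gata4 measured 26.7, 30.5, 17.2 and 17.6 CPM in Acinar, 45.1, 40.7, 37.0 and 35.4 CPM in Acinar/MucinDuctal and 58.7, 42.3, 51.3 and 45.2 CPM in MucinDuctal cells. Its log2 ratio of MucinDuctal to Acinar cells, 1.10 ± 0.46, was that of the median gene within 0.02. Its direction depended on the scale. With enzymes left out of the total it was at 59.5% to 99.9% of the Acinar level in MucinDuctal cells, with overlapping ranges (43.4 to 61.3 and 52.4 to 72.9 CPM), at 57.1% to 81.2% in Tuft cells and at 62.1% to 89.9% in EEC. Counted as UMIs per cell it was at 119% to 163% in MucinDuctal cells, higher in each mouse with overlapping ranges, at 84.3% to 102% in Tuft cells and at 67.9% to 81.3% in EEC. Gata6 measured 16.1, 25.5, 10.6 and 11.4 CPM in Acinar, 71.9, 59.2, 67.5 and 50.3 CPM in Acinar/MucinDuctal and 108, 84.3, 107 and 91.8 CPM in MucinDuctal cells. In CPM every MucinDuctal value was above every Acinar/MucinDuctal value, and these were above every Acinar value. Without enzymes the Acinar/MucinDuctal (74.9 to 102 CPM) and MucinDuctal (86.5 to 112 CPM) ranges overlapped, both above Acinar cells (32.8 to 60.9 CPM). Per cell, the Acinar/MucinDuctal range (0.326 to 1.76 UMIs) overlapped with those of both other types. The log2 ratio of MucinDuctal to Acinar cells was 2.62 ± 0.66, 1.5 above the median gene. Gata6 remained higher in MucinDuctal cells without enzymes (142% to 339% of Acinar) and with cells thinned to 1500 UMIs (a share of 11.8% to 15%, against 1.67% to 4.06% of Acinar cells). For each 100 Gata4 UMIs there were 60.3 to 83.6 Gata6 UMIs in Acinar cells, 142 to 183 in Acinar/MucinDuctal and 183 to 209 in MucinDuctal cells. This ratio does not depend on the enzymes. Tuft cells held 38.5 to 52.1 CPM of Gata6 and EEC 66.8 to 96.5 CPM; without enzymes EEC stayed above Acinar cells and Tuft cells overlapped with them. Untyped cells with fibroblast markers held 55.2 to 71.8 CPM of Gata6, and the summed fibroblast markers were 4.07 to 9.85 CPM in Acinar and 3.68 to 24.0 CPM in MucinDuctal cells.

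**Figure D2:**
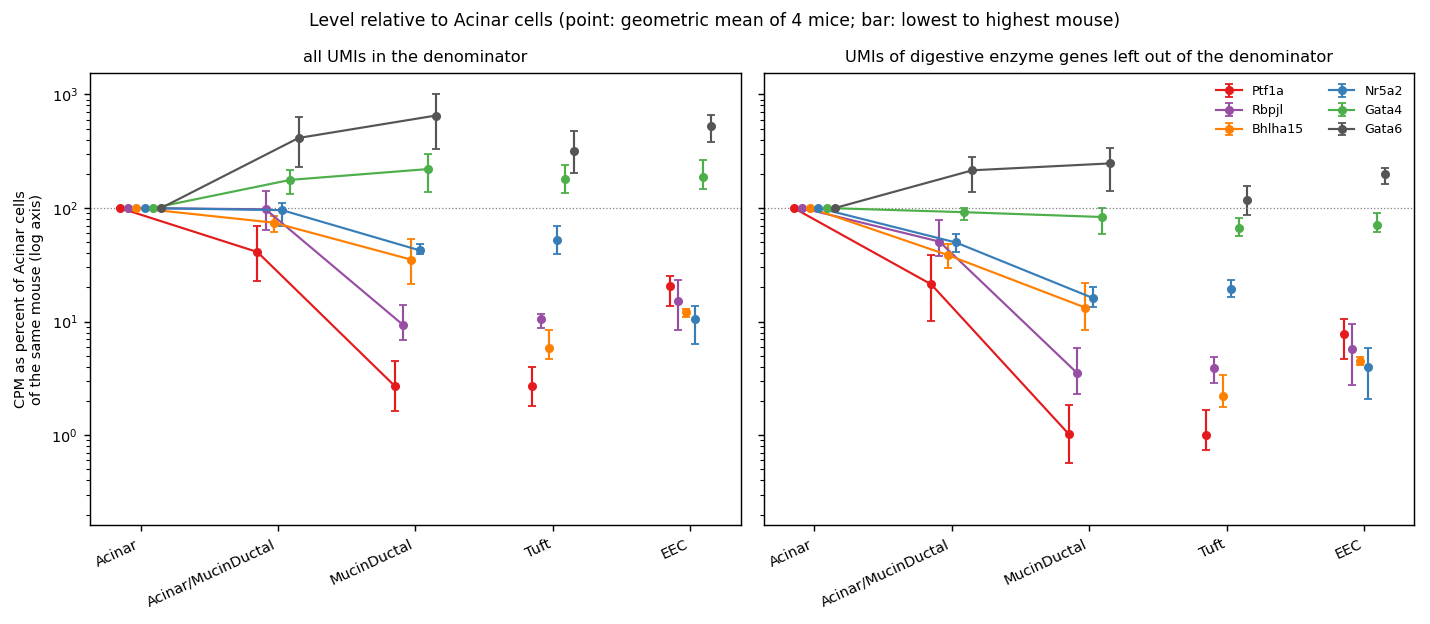
Levels of the 6 genes are drawn as a percentage of the Acinar level of the same mouse on a log axis, with all UMIs in the total (left) or enzyme UMIs left out (right); points are geometric means of 4 mice and bars reach from the lowest to the highest mouse. Ptf1a is lowest in Acinar/MucinDuctal, MucinDuctal and Tuft cells in both panels, Gata6 is above 100% in MucinDuctal cells in both, and Gata4 changes side between them. The CPM of Ptf1a in MucinDuctal and Tuft cells lies below that of lymphocyte-marker cells in all 4 mice.

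The order of loss was the same in part from mouse to mouse. In Acinar/MucinDuctal cells Ptf1a was the lowest relative to all Acinar cells and Bhlha15 the next in all 4 mice. Acinar cluster 6 held 90.1 to 115 CPM of Ptf1a and Acinar cluster 0 held 26.0 to 37.6 CPM. Per 100 Rbpjl UMIs, Acinar/MucinDuctal cells held 20.4, 20.9, 6.16 and 21.0 Ptf1a UMIs, against 19.2 to 21.7 in cluster 0. Of Bhlha15 they held 30.2 to 45.1 UMIs, against 42.7 to 75.7 in cluster 0. Relative to cluster 0, Ptf1a was thus lower than Bhlha15 only in 4-week mouse 1. None of the 6 was lower in Acinar/MucinDuctal than in all Acinar cells without overlap of the mice (0.623% of 14449 genes were). Gata4 and Gata6 were higher (69.8% were). Without enzymes in the total, Ptf1a, Rbpjl, Bhlha15 and Nr5a2 were all lower in Acinar/MucinDuctal cells with no overlap (7.34% of genes were) and Gata6 higher (25.1% were). On that scale Gata6 was also higher in MucinDuctal cells (26.5% of genes were) and in EEC (47.1% were), and no member was higher in Tuft cells (36% were). Counted as UMIs per cell, Ptf1a, Rbpjl and Bhlha15 were lower in Acinar/MucinDuctal cells (3.32% of genes were) and no member was higher (3.2% were). Gata6 was higher per cell in MucinDuctal cells (52.3% were) and EEC (47.3% were), Nr5a2 and Gata6 in Ductal-like cells (59.1% were), and none in Tuft cells (48.3% were). In CPM, between Acinar/MucinDuctal and MucinDuctal cells the same 4 genes were lower with no overlap (4.5% of 15207 genes were) and Gata6 was higher (26.2% were). Without enzymes in the total the 4 genes still did not overlap, but Gata6 did. Counted as UMIs per cell, only Rbpjl was lower with no overlap, and Gata6 overlapped. The shares of all genes for this step were computed in CPM only. The log2 ratios of that step were -3.22 ± 0.57 for Ptf1a, -3.29 ± 0.48 for Rbpjl, -1.05 ± 0.43 for Bhlha15 and -1.13 ± 0.26 for Nr5a2. In MucinDuctal cells the CPM of Ptf1a exceeded that of lymphocyte-marker cells in 0 of 4 mice and that of Rbpjl in 1. The sizes of these 2 steps, and the order of the 2 genes, are therefore not resolved from background. In Tuft cells the 4 genes were also lower than in Acinar cells with no overlap (5.78% of genes were) and the GATA genes higher (68% were), and in EEC likewise (3.64% lower, 77% higher). Between the types away from the acinar state, Tuft cells were lower than MucinDuctal cells with no overlap in Bhlha15, Gata4 and Gata6 (19.3% of genes were) and higher in none (29.8% were). EEC were lower than MucinDuctal cells in Bhlha15 and Nr5a2 (14.6% were) and higher in Ptf1a (41.6% were). Tuft cells were lower than EEC in Ptf1a, Bhlha15 and Gata6 (35.7% were) and higher in Nr5a2 (19.3% were). Ductal-like cells were lower than Acinar cells in Ptf1a, Rbpjl and Bhlha15 (2.85% were) and higher in Gata6 (69.5% were). They were lower than MucinDuctal cells in Gata4 (4.98% were) and higher in Ptf1a, Rbpjl, Nr5a2 and Gata6 (23.1% were). In EEC the order of loss was another one, with Bhlha15 or Nr5a2 lowest and Ptf1a no longer. Acinar/MucinDuctal cells were shallow in 3 mice, with median depths of 3387, 2659 and 3555 UMIs, against 19556 UMIs in 2-week mouse 2. Ptf1a was found in 19.9%, 32.8%, 6.02% and 12.4% of them, and in 6.37%, 3.05%, 2.03% and 4.01% after thinning to 1500 UMIs, which left out 37, 21, 78 and 141 cells. Markers of other cells were also higher in this type: lymphocyte genes summed to 17.7 to 134 CPM and macrophage genes to 30.8 to 132 CPM, against 4.56 to 13.7 and 4.35 to 12.9 CPM in Acinar cells. Lymphocyte genes were at 59.7 to 146 CPM in Tuft cells, and their part in the values was not tested.

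With cells thinned to 1500 UMIs, the mean number of the 6 genes detected per cell was 0.510 to 0.761 in Acinar and 0.487 to 0.838 in Acinar/MucinDuctal cells, overlapping ranges. It was 0.279 to 0.355 in MucinDuctal cells, 0.178 to 0.225 in Tuft cells and 0.210 to 0.307 in EEC, below every Acinar value. This mean pools opposite directions. For Ptf1a, Rbpjl, Bhlha15 and Nr5a2 it was 0.461 to 0.670 in Acinar and 0.0788 to 0.125 in MucinDuctal cells. For Gata4 and Gata6 it was 0.0456 to 0.0916 in Acinar and 0.180 to 0.230 in MucinDuctal cells. In dividing acinar cells, Acinar.Prolif, the CPM range of each of the 6 genes overlapped with that of Acinar cells (1.15% of genes were lower and 23.7% higher with no overlap). Within mice Ptf1a was at 64.3% to 77.7% of the Acinar level, and without enzymes at 49.0% to 56.5%, lower with no overlap (5.48% of genes were). That level includes Acinar cluster 6, with 90.1 to 115 CPM of Ptf1a. Against Acinar cluster 0 (26.0 to 37.6 CPM), Ptf1a in Acinar.Prolif cells (29.9 to 46.5 CPM) was higher in each mouse with all UMIs in the total. Enzymes took 67.1% to 72.6% of the UMIs of cluster 0 and 44.7% to 55.8% of those of Acinar.Prolif cells. With enzymes left out of the total, Ptf1a was lower in Acinar.Prolif cells than in cluster 0 in each mouse. Per 100 Rbpjl UMIs, cluster 0 held 19.2 to 21.7 and Acinar.Prolif cells 16.7 to 24.6 Ptf1a UMIs. In Acinar.Prolif cells Rbpjl was at 115% to 147% of the Acinar level, or 87.3% to 115% without enzymes.

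The deposited clusters within a type also differed. Acinar cluster 6 held 115, 90.1, 99.1 and 109 CPM of Ptf1a and Acinar cluster 0 held 29.9, 37.6, 26.0 and 30.4 CPM. Rbpjl measured 109, 106, 113 and 94.6 CPM in cluster 6, 156, 194, 124 and 140 CPM in cluster 0 and 335, 280, 312 and 290 CPM in cluster 8, where Ptf1a was 36.1 to 78.9 CPM. Enzymes took 39.6% to 50.8% of the UMIs of cluster 8 and 67.1% to 72.6% of those of cluster 0. Without enzymes, cluster 8 was at 90.4% to 133% of cluster 0 for Rbpjl and at 73.2% to 131% for Ptf1a. Cluster 6 was below cluster 0 for Rbpjl in CPM, but at 78.9% to 118% of it in UMIs per cell, with median depths of 36818 to 48746 UMIs in cluster 6 and 24782 to 30753 in cluster 0. Per 100 Rbpjl UMIs cluster 6 held 84.7 to 116 Ptf1a UMIs and cluster 0 held 19.2 to 21.7. Among MucinDuctal cells Bhlha15 measured 50.5, 34.9, 26.8 and 38.9 CPM in cluster 2 and 12.4, 13.9, 14.0 and 20.9 CPM in cluster 1. The share of all genes that lay so between these clusters was not computed. EEC-Progenitor cells held 26.4, 24.0, 25.8 and 26.4 CPM of Bhlha15, and Epsilon cells held 7.61, 4.36, 3.07 and 3.35 CPM. The EEC-Progenitor label also covers cells outside the EEC type, so these values do not describe a difference within EEC alone. In 2-week mouse 2 EEC-Progenitor cells held 58 Bhlha15 UMIs, against 47 in all EEC.

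**Figure D3:**
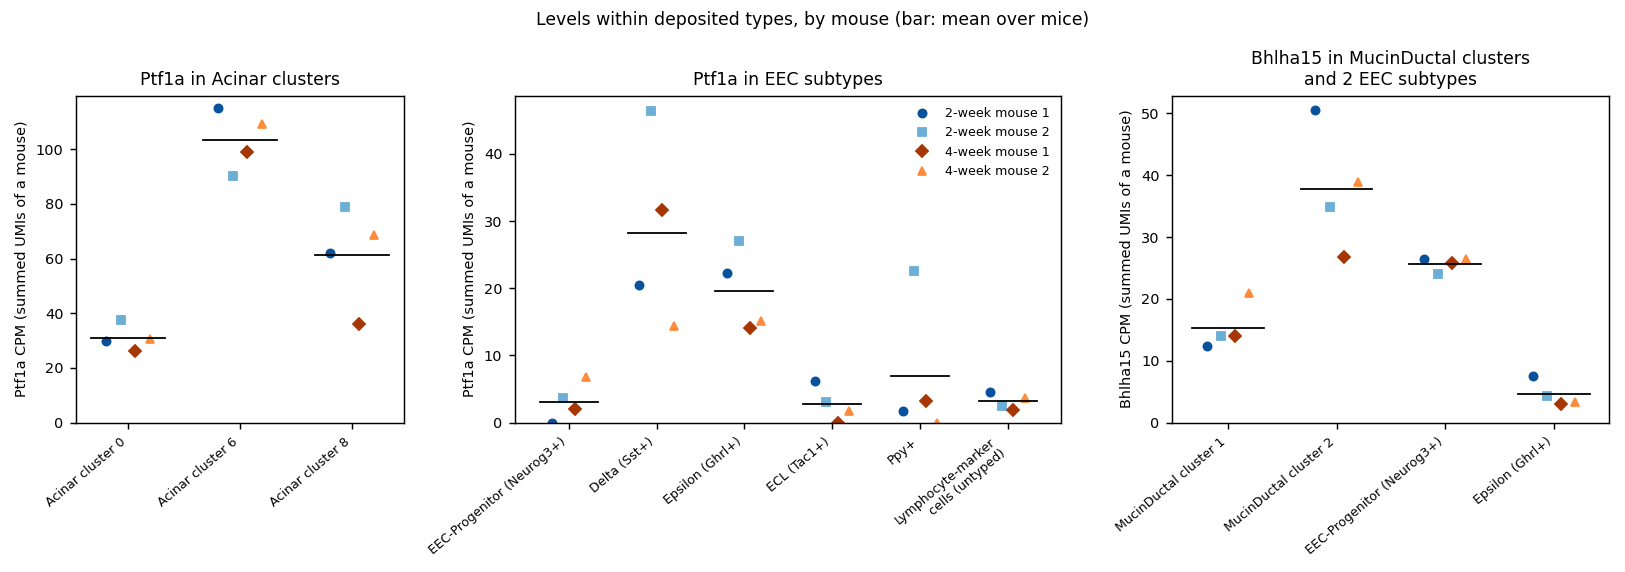
CPM by mouse of Ptf1a in the 3 Acinar clusters (left), of Ptf1a in 5 deposited enteroendocrine subtypes and untyped lymphocyte-marker cells (middle), and of Bhlha15 in 2 MucinDuctal clusters and 2 of these subtypes (right). Points are mice with at least 20 cells and bars are means. The EEC-Progenitor subtype also covers cells outside the EEC type. Acinar cluster 6 lies above cluster 0 in every mouse, Delta and Epsilon cells lie above the lymphocyte-marker cells in every mouse, and MucinDuctal cluster 2 lies above cluster 1.

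Other genes of the same pathways were counted from lists. Of 36 measured enzyme genes, 25 were lower in Acinar/MucinDuctal than in Acinar cells with no overlap (0.623% of all genes were) and 34 in MucinDuctal cells (2.62% were), with medians of -1.10 and -6.07 on the log2 scale. Cpa1, a carboxypeptidase, was at 18165 to 21511 CPM in Acinar, 7873 to 9497 in Acinar/MucinDuctal and 167 to 381 CPM in MucinDuctal cells. Rbpj and the E proteins Tcf3, Tcf4 and Tcf12, the partners of PTF1A, were all 4 higher in CPM in MucinDuctal than in Acinar cells with no overlap, with a median of 2.03 (73.2% of all genes were higher, with a median of 1.12). Rbpj measured 6.76 to 15.2 CPM in Acinar and 21.0 to 26.5 CPM in MucinDuctal cells. Among 6 secretory genes known as BHLHA15 targets, Rab26, Atp2c2 and Copz2 were lower in MucinDuctal cells and Rab3d and Gjb1 higher, where 2.62% and 73.2% of all genes were. Cckar, the cholecystokinin receptor that caerulein acts on, was at 164 to 259 CPM in Acinar and 46.8 to 106 CPM in MucinDuctal cells. Gata5 was at 0.698 to 2.65 CPM in Acinar and 59.3 to 91.3 CPM in MucinDuctal cells, and Zfpm1, which encodes a GATA cofactor, at 19.2 to 43.5 and 111 to 177 CPM. Of 12 endoderm factors, 11 were higher in MucinDuctal cells, all but Onecut1, with a median of 2.22, where 73.2% of all genes were higher and the median gene stood at 1.12. Nr0b2, which encodes a partner of NR5A2, overlapped between Acinar and MucinDuctal cells (9.69 to 17.7 and 12.3 to 23.4 CPM) and was lower in Tuft cells and EEC, and Nr5a1 was near 0.

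Over 31 sums of a type in a mouse, the genes most like each member in log2(CPM + 1) were ranked by Pearson's r among 8049 genes, as a description, since the sums share libraries and enzyme content. Matn4 was the closest to both Ptf1a (r = 0.942) and Rbpjl (r = 0.942). Cuzd1 and Ctrc came next for Ptf1a (0.903 and 0.901), and 1810053B23Rik and Reg3d for Rbpjl (0.942 and 0.933). Bhlha15 was nearest to Cckar (0.955), Derl3 (0.938) and Reg1 (0.937), Nr5a2 to Cbs (0.816), Nr0b2 (0.808) and Slc25a13 (0.787), Gata4 to Hibch (0.852), Rab3d (0.812) and Oxsr1 (0.801), and Gata6 to Arhgef12 (0.980), Foxp1 (0.978) and Atf7 (0.977). Between members r was 0.886 for Ptf1a with Rbpjl, 0.575 for Ptf1a with Bhlha15 and -0.64 for Ptf1a with Gata6.

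Whether the factors differed between 2 and 4 weeks was asked within each of 7 types with edgeR's quasi-likelihood test on summed counts, with Benjamini-Hochberg adjustment over all genes of a type. No member passed in the 40 member and type pairs tested (0% of genes passed in 6 types and 0.00995% in Acinar.Prolif, 1 gene). At an unadjusted p under 0.05 there were 7 of the 40 pairs, 17.5%, where 4.29% of 79056 gene and type pairs passed. By type this background was 2.79% in Acinar, 2.45% in Acinar.Prolif, 3.42% in Acinar/MucinDuctal and 5.39% in MucinDuctal cells. It was 6.74% for Tuft cells, 4.03% for EEC and 5.27% for Ductal-like cells. DESeq2 called no member after adjustment, and 3 of 42 pairs (7.14%) at an unadjusted p under 0.05, where 1.42% of 129583 pairs of all genes passed. The 7 pairs were Ptf1a, Rbpjl and Nr5a2 in MucinDuctal cells and in EEC, and Rbpjl in Tuft cells. In each, both 4-week mice lay below both 2-week mice. The change of Rbpjl at 4 weeks against 2 weeks was -1.35 (SE 0.20, edgeR adjusted p = 0.317) in EEC, -0.97 (SE 0.15, edgeR adjusted p = 0.824) in MucinDuctal and -0.76 (SE 0.22, edgeR adjusted p = 0.466) in Tuft cells, on the log2 scale. In EEC it passed without the filter on low counts (edgeR adjusted p = 1.17e-07) and without 2-week mouse 1 (edgeR adjusted p = 3.54e-04) or 2-week mouse 2 (edgeR adjusted p = 7.04e-04); over all alternatives the adjusted p reached 1.00 at most. The Rbpjl level of lymphocyte-marker cells, 33.8 and 35.2 CPM at 2 weeks and 9.16 and 46.3 CPM at 4 weeks, moved with it in 1 of the 4-week mice, and its part was not tested. For Ptf1a the changes were -1.23 (SE 0.40) in MucinDuctal cells, where its CPM lay below that of the lymphocyte-marker cells (4.62, 2.51, 1.83 and 3.70 CPM) in each mouse, and -0.55 (SE 0.23) in EEC, and for Nr5a2 -0.58 (SE 0.16) and -1.26 (SE 0.39), with edgeR adjusted p of 0.824 to 0.986. In Acinar cells Rbpjl, Nr5a2, Gata4 and Gata6 had lower CPM in both 4-week mice, but the fitted changes of the 6 genes lay between -0.44 (Gata6) and 0.42 (Bhlha15) with edgeR adjusted p = 0.998 for each.

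**Figure D4:**
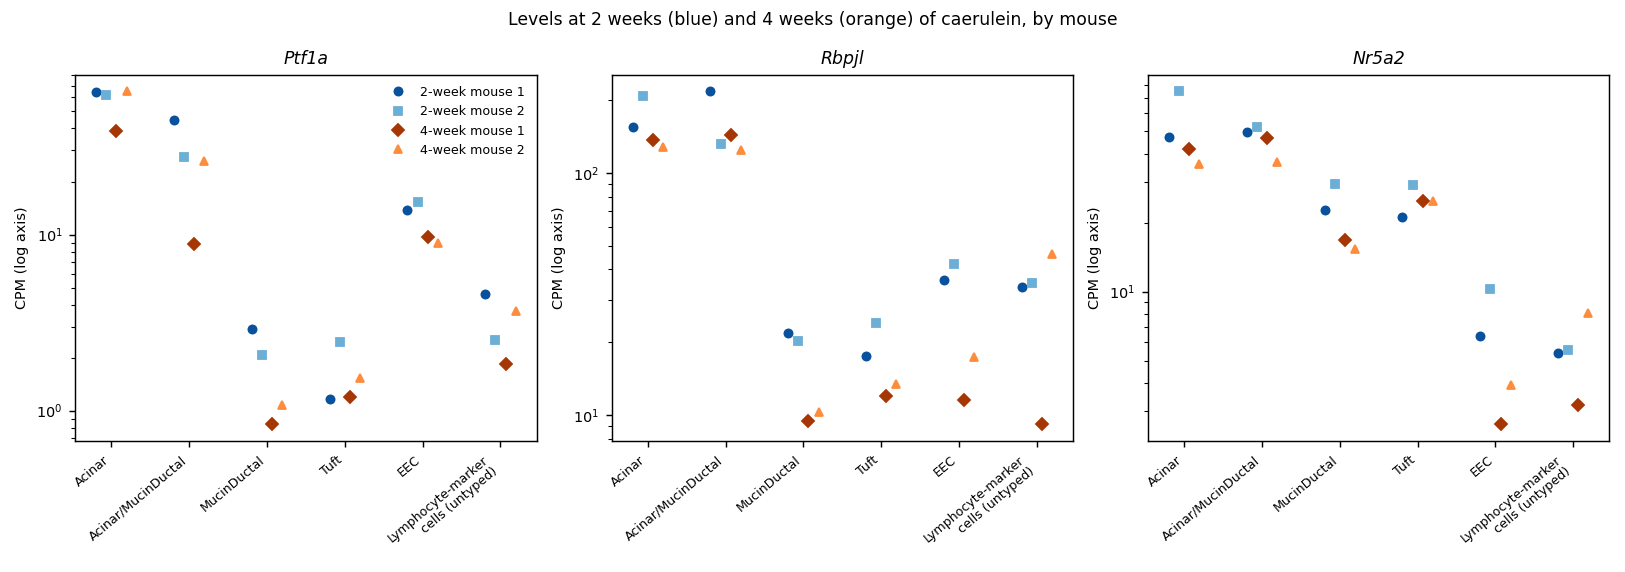
CPM on log axes of Ptf1a, Rbpjl and Nr5a2 in 5 types and in untyped lymphocyte-marker cells, for the 2-week mice (blue) and the 4-week mice (orange). In MucinDuctal cells and EEC both 4-week points of each gene lie below both 2-week points, and for Rbpjl the lymphocyte-marker cells of 4-week mouse 2 lie above those of the 2-week mice.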

How the data were processed

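The deposited tables hold raw UMI counts per gene and cell, which the authors did not normalize, and cell type names that the authors deposited. Cell Ranger 4.0.0, Seurat 3.2.3 and mm10 are named in the submitters' processing notes, without their roles. How types were assigned, and whether doublets were removed, is not given in the sources used here. No doublet caller was run; an alternative left out cells above the 95th UMI percentile of their mouse.

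Counts were summed per mouse and type with at least 20 cells. CPM used all UMIs or left out 37 of 38 listed enzyme genes. Log2 ratios were taken within a mouse on CPM + 1. Background came from untyped cells of the merged table with at least 3 of 12 lymphocyte markers. Shares of cells are of cells with at least 1 UMI, and thinned shares are expected values at 1500 UMIs. Time points were compared with edgeR 4.0.16 (quasi-likelihood, robust, TMM, filterByExpr, R 4.3.3), which was tested on simulated counts, and with DESeq2 1.42.0. Between-type differences had no test. Names printed are the 6 members, genes of lists, and the 3 genes most like each member with a mean of at least 10 CPM. The members and lists were chosen with earlier results of these data known. Each mouse is 1 replicate, and mice were numbered in accession order.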

Additional observations from a re-analysis of the deposited data

Results flagged for a closer look

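Some of the 6 genes were found in cells outside the 8 types, taken from the merged table by marker genes, above the level of lymphocyte-marker cells of the same mouse in every mouse. Cells with macrophage markers held a mean of 41.9 CPM of Rbpjl (23.8 to 58.9), 7.06 CPM of Nr5a2 (4.32 to 10.3), 6.36 CPM of Gata4 (3.56 to 13.5) and 8.86 CPM of Gata6 (3.67 to 15.7), over 4 mice. Cells with fibroblast markers held 62.6 CPM of Gata6 (55.2 to 71.8, 4 mice). Cells with endothelial markers held 34.4 CPM of Nr5a2 (25.9 to 42.8, 3 mice with at least 20 cells), from 8, 7 and 4 UMIs. The Gata4 value of macrophage-marker cells came from 8 to 25 UMIs per mouse. Fibroblast-marker cells held 83, 135, 61 and 48 Gata6 UMIs and 0, 7, 0 and 2 Gata4 UMIs in the 4 mice. Whether these transcripts came from the cells themselves, from free RNA or from doublets was not tested.

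Ptf1a was higher at 4 weeks in both mice of Ductal-like cells, by 1.06 on the log2 scale, from 4, 12, 4 and 5 UMIs, and lower in both mice of 3 other types. The change in Ductal-like cells stood 2.06 above that in Acinar/MucinDuctal cells (-1.01), 1.89 above that in MucinDuctal cells (-0.84) and 1.65 above that in EEC (-0.59). These differences were not tested. Ductal-like cells of 4-week mouse 1 held 12.6% enzyme UMIs, against 2.95% to 3.36% in the other mice, at a median depth of 8889 UMIs against 21039 to 38506, and the part of this was not tested. Counted as UMIs per cell, Ptf1a in Ductal-like cells of the 2-week mice (0.105, 0.214) overlapped with that of the 4-week mice (0.174, 0.227).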

How the results depend on the processing

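Limits are the 2 mice per time point, the shallow Acinar/MucinDuctal cells and acinar transcripts in other cells. No paired analysis was possible because the 2-week and 4-week mice are different animals; types were compared within a mouse. The count of members lower than in Acinar cells with no overlap was 4 in MucinDuctal under each setting (2.59% to 15.1% of all genes). In Tuft and EEC it was also 4 (5.65% to 11.3% and 3.64% to 12.4%). With enzymes left out it was 5 in these types (20% and 15.1% of all genes), when Gata4 was added. The shares were not computed for the mean of per-cell CPM. Genes called over time in all 7 types numbered 1, and 129 with DESeq2, 892 without the low-count filter, 0 without the robust fit, 2 without the deepest cells and 24 to 1410 with 1 mouse left out, where the lone mouse of a time point is assumed to vary like the others. Members called numbered 0, and 1 without the filter and 0 to 1 with 1 mouse left out.

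With mean UMIs per cell in place of CPM, the log2 ratio of Gata4 to Acinar became -0.77 in Acinar/MucinDuctal, -0.0948 in Tuft and -0.41 in EEC. Members lower than in Acinar cells without overlap then numbered 3 in Acinar/MucinDuctal (3.32% of all genes). Members higher numbered 0 in both Acinar/MucinDuctal (3.2%) and Tuft (48.3%), 1 in both MucinDuctal (52.3%) and EEC (47.3%), and 2 among Ductal-like cells (59.1%). With enzymes left out, the Gata4 ratio became -0.12 in Acinar/MucinDuctal, -0.26 in MucinDuctal, -0.58 in Tuft and -0.49 in EEC, that of Nr5a2 in Ductal-like -0.22, and those of Rbpjl and Bhlha15 in Acinar.Prolif -0.0025 and -0.16. Members lower then numbered 4 in Acinar/MucinDuctal (7.34% of all genes) and 1 in Acinar.Prolif (Ptf1a, 5.48%). Members higher numbered 1 in Acinar/MucinDuctal (25.1%), MucinDuctal (26.5%) and EEC (47.1%) and 0 in Tuft (36%). Without the deepest cells 1 member, Ptf1a, was lower in Acinar/MucinDuctal (0.835% of all genes), and among cells with at least 2 EYFP UMIs, where 2 mice had enough cells, 2 were higher in Ductal-like (85.4%). With 1 mouse left out, members lower numbered 0 to 1 in Acinar/MucinDuctal (0.917% to 1.1% of all genes) and in Acinar.Prolif (1.68% to 3.01%), and members higher 1 to 2 in Ductal-like (75.3% to 77.6%) and 0 to 1 in Acinar.Prolif (28.1% to 45.1%). The cause of these shifts was not tested.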

Other observations

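Cluster 15, labelled Acinar/MucinDuctal, had 14, 8, 15 and 22 cells in the 4 mice and median depths of 1497 to 2620 UMIs. Its Rbpjl level was 1389, 1774, 305 and 501 CPM, from 52, 26, 10 and 21 UMIs. The cluster was singled out after its values were seen, and the highest value in any other deposited cluster was 335 CPM, in Acinar cluster 8 of 2-week mouse 1.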
